A study of Mus musculus with 18 samples.

Results

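PSE_a and PSE_b are neighbouring pieces of the primitive streak enhancer, a stretch of DNA just upstream of Eomes on mouse chromosome 9. The measurements described here are all DpnII restriction fragments between 117400000 and 119400000 of that chromosome (mm9, the coordinates of the deposited files) as seen from these 2 elements. The genome has 4703 such fragments in this 2000 kb region, of which 4099 had at least 1 read from PSE_a or PSE_b in at least 1 library, 604 had none and 11 belong to the captured enhancer zones. The files of the series list 1213474 fragments in all. The questions were how much of each element's contact lies in the domain from 117928997 to 118435452, how sharply contact changes at the ends of that domain, and whether the 2 elements have the same profile.

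In NG Capture-C, crosslinked chromatin is cut, ligated and enriched with probes for a viewpoint, and reads that join the viewpoint to another fragment record how often both lay close together in the nucleus. Chromosomes fold into domains within which sequences meet each other more often than they meet sequences outside, and the ends of such domains are often marked by binding of the protein CTCF. Eomes encodes a T-box transcription factor needed for mesoderm and definitive endoderm, and Nodal signals that act through Smad2/3 regulate it. Contact with a viewpoint falls with distance along the chromosome in any cell, so that a domain shows as a departure from this decline.

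Embryonic stem cells (ESC, strain 129/Sv//EV, day 0), definitive endoderm made from ESC through embryoid bodies (DE, day 5, with activin A at 20 ng/ml and EGF at 20 ng/ml from day 2 on) and erythrocytes (spleen cells of C57BL/6 mice given phenylhydrazine, taken on day 5) gave 3 libraries each. No group carried a deletion or transgene, the purity of the DE cultures is not given, and the age and number of mice are not given in the labels. In comparisons with erythrocytes, effects of strain and of cell type cannot be told apart, and no RNA was measured, so the identity of the cells was not checked here. Libraries are numbered replicates of a cell type. The study calls the replicates behind its promoter profiles biological, but does not say whether they were separate cultures or animals. The p-values therefore cover the spread between these libraries, of which a part may be technical.

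Each element was captured as a short run of fragments, which is here called its zone and which holds no values itself. The PSE_a zone spans 1355 bases in 5 fragments (118376738 to 118378092) and the PSE_b zone 1790 bases in 3 fragments (118380281 to 118382070). Their centres lie at -9.9 kb and -6.2 kb from the Eomes start at 118387330, 3.76 kb from each other with a gap of 2.19 kb, in intergenic sequence. The domain is 506 kb long, and both elements sit near its right end, 58.0 kb and 54.3 kb from the right edge and 448 kb and 452 kb from the left edge. Its ends were first read from a picture and carry a reading error. The ends of the 2 zones are shown because DpnII cuts there set which ligations could be seen. All sequences are the forward strand of mm9, and capitals mark GATC, the letters that DpnII cuts.
PSE_a zone left end (chr9:118376736-118376815): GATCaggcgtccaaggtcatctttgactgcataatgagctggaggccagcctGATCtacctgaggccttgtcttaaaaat
PSE_a zone right end (chr9:118378015-118378094): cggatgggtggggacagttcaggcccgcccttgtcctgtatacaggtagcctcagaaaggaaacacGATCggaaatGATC
PSE_b zone left end (chr9:118380279-118380358): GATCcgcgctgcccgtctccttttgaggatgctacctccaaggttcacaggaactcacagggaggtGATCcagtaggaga
PSE_b zone right end (chr9:118381993-118382072): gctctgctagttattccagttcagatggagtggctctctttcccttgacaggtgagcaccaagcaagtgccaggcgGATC

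The 2 zones differed in their letters. The letters AATCCACA, a binding motif of the forkhead factor Foxh1, were searched on both strands without any measure of binding. They occurred once in the PSE_b zone, on the minus strand at 118381142 to 118381149, and were not found in the PSE_a zone. They were also not found in the captured zone of VPE, an enhancer where the study reports a predicted Foxh1 site. The search for these exact letters can thus miss such sites, also in the PSE_a zone. Of all windows of 1790 bases on chromosome 9, 7.88% hold these letters, and of windows of 1355 bases 6.00%. The match is shown with its surroundings because it is a sequence difference between elements that lie side by side, and here the capitals mark the match as read on the forward strand. It overlaps a match to CCANNAGNG, the first part of the CTCF consensus, at 118381138 to 118381146. CCANNAGNG was found 3 times in the PSE_b zone and not in the PSE_a zone, against 62.4% and 52.5% of windows of these lengths with at least 1 match. GC content was 45.7% at PSE_a and 48.3% at PSE_b.
PSE_b around the Foxh1 letters (chr9:118381086-118381205): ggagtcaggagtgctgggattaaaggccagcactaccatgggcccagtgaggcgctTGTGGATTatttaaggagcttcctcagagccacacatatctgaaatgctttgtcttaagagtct

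The sequence around each end of the domain is shown because the steps reported here were measured across them, and neither stretch holds GATC. CCANNAGNG occurred 24 times in the 50 kb inside and 23 times in the 50 kb outside the left edge. At the right edge it occurred 24 times inside and 32 times outside. The median window of 50 kb on chromosome 9 held 27 matches, with a middle range of 22 to 33.
left edge (chr9:117928848-117929147): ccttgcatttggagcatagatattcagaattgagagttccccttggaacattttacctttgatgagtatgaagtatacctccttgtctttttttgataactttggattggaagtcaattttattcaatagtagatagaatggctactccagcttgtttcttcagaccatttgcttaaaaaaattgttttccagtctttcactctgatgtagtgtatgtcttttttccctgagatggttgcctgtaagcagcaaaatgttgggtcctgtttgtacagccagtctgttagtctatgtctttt
right edge (chr9:118435303-118435602): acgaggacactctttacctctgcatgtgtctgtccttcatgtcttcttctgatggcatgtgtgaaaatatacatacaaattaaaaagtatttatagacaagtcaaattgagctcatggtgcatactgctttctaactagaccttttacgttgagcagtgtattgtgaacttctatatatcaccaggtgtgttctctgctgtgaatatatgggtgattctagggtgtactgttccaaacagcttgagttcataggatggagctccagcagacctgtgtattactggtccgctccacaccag

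Each viewpoint had between 4574 and 29079 interactions per library, with medians of 13565 at PSE_a and 11500 at PSE_b in ESC, 27924 and 27308 in DE, and 8908 and 7074 in erythrocytes. Of the interactions on chromosome 9, between 49.2% and 73.8% lay in the 2000 kb region. Erythrocyte replicate 2 stood apart from the other 2 in the share of interactions on chromosome 9, with 69.3% at PSE_a against 25.01% and 36.3%, and 75.3% at PSE_b against 39.7% and 42.4%. Erythrocyte replicate 3 stood apart in the share of chromosome 9 reads within 20 kb of the viewpoint, with 61.8% at PSE_a against 29.2% and 25.7%, and 49.9% at PSE_b against 29.0% and 23.8%. Differences in domain share and left step are therefore also given without replicate 2, and counts of calls also without replicate 2 or replicate 3. Levels per kb are given with all erythrocyte libraries only. All values below were scaled to 100000 interactions on chromosome 9.

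Distant contacts of both elements lay in the domain far more often in ESC and DE than in erythrocytes. The share is the percentage of chromosome 9 reads farther than 20 kb from the viewpoint that fell in the domain. From PSE_a it was 46.1%, 43.1% and 43.3% in the ESC libraries (44.2% ± 1.71, SD, n = 3), 42.9%, 40.6% and 41.1% in DE (41.5% ± 1.203) and 15.3%, 18.2% and 16.7% in erythrocytes (16.7% ± 1.496). From PSE_b it was 45.5%, 44.2% and 44.8% in ESC (44.8% ± 0.644), 43.1%, 42.1% and 42.3% in DE (42.5% ± 0.527) and 16.0%, 19.5% and 18.7% in erythrocytes (18.1% ± 1.82). All 6 erythrocyte values lay far below all others, and the erythrocyte mean minus the ESC mean was -27.5 points from PSE_a and -26.8 points from PSE_b. Without erythrocyte replicate 2 these differences were -28.2 and -27.5 points. The 3 cell types differed in an exact permutation test over the 9 libraries at each viewpoint (p = 0.0036, the smallest that 3 groups of 3 allow, 0.0089 adjusted over 10 such tests). The widest 95% Wilson interval of a single library, erythrocyte replicate 3 at PSE_a with 206 of 1237 reads, ran from 14.7% to 18.8%, and intervals cover counting error only.

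**Figure D1:**
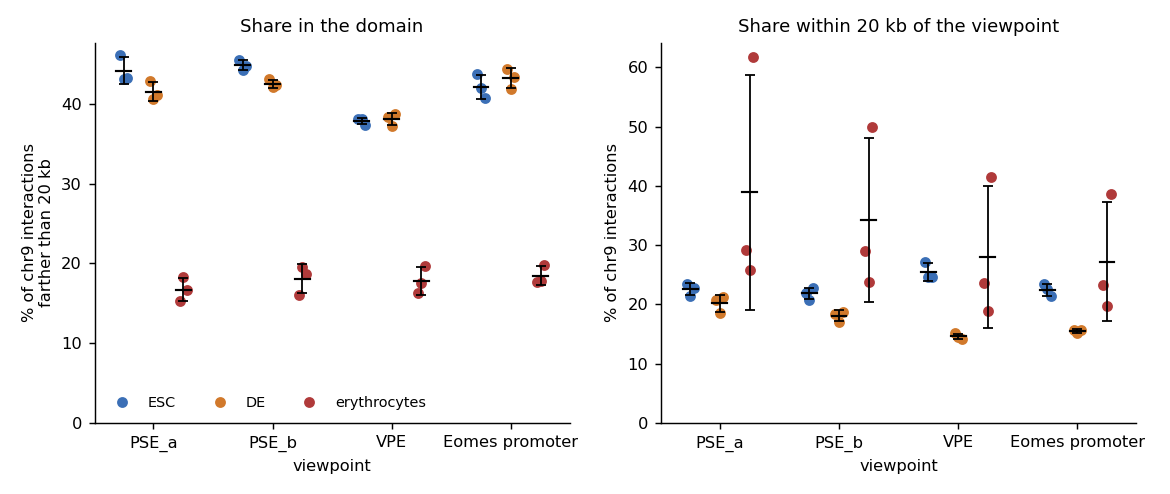
Share of chromosome 9 reads beyond 20 kb of the viewpoint that lay in the domain (left, percent) and share of chromosome 9 reads within 20 kb of the viewpoint (right, percent), for PSE_a, PSE_b, VPE and the Eomes promoter in ESC, DE and erythrocytes. Points are libraries, bars are means and error bars are SD (n = 3). From PSE_a and PSE_b the ESC and DE libraries lie between 40.6% and 46.1% in the left panel and the erythrocyte libraries between 15.3% and 19.5%.

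The difference between DE and ESC was small, and its direction depended on the total. With chromosome 9 as the total, the DE mean minus the ESC mean was -2.66 points from PSE_a and -2.31 points from PSE_b, and the libraries did not overlap. An exact two-sided permutation test of 3 libraries against 3 cannot go below p = 0.1, which was its value at both viewpoints. With the reads of the 2000 kb region as the total, DE was higher than ESC, by 3.75 points from PSE_a (72.3% against 68.6%) and 3.91 points from PSE_b (72.4% against 68.5%). In DE the region held between 65.0% and 67.2% of the chromosome 9 reads from PSE_a, and in ESC between 71.6% and 73.8%.

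Within the domain, contact was spread over nearly all fragments in ESC and DE and not held by a few. Of 1059 domain fragments beyond 20 kb of both viewpoints, 85.9% had a read from PSE_a in ESC and 90.0% in DE, and 86.1% and 90.0% had one from PSE_b. In erythrocytes 54.0% and 56.4% had one, with 1399 and 1511 reads in all against 6313 to 15064 in the other groups. A fragment without a read at this depth cannot be called free of contact. The fragment with the most reads, 118356029 to 118357669, had 234 reads over all libraries of both viewpoints and lies at -30.5 kb from the Eomes start in intergenic sequence. From PSE_a it had 90.6, 150 and 108 per 100000 in ESC, 199, 233 and 179 in DE and 134, 155 and 30.9 in erythrocytes. Its first 300 bases are shown because no other distant fragment of the domain drew as many reads.
most read fragment, left end (chr9:118356027-118356326): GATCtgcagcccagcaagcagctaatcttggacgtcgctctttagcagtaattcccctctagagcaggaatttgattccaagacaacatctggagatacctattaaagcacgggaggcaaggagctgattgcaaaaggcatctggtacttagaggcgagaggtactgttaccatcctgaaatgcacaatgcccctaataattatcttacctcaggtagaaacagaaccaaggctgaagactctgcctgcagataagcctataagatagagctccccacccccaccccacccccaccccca

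Contact declined along the domain towards the left edge and dropped further beyond it in ESC and DE. From PSE_b, the mean level in DE was 124 ± 0.491 per kb in the stretch from 300 kb after the left edge to 20 kb before PSE_a, 69.2 ± 0.802 in the 100 kb before that, 52.7 ± 0.906 in the next and 32.0 ± 2.20 in the first 100 kb of the domain. In ESC the same stretches had 135 ± 9.19, 61.3 ± 3.49, 49.2 ± 3.77 and 26.95 ± 2.01. In erythrocytes they had 41.6 ± 10.96, 17.3 ± 6.01, 14.8 ± 4.53 and 8.27 ± 2.85 per kb (SD, n = 3 each), which is lower throughout. Outside the left edge, the first 100 kb had 9.59 ± 0.829 per kb in DE, 7.48 ± 0.339 in ESC and 7.58 ± 1.04 in erythrocytes. In the first 100 kb inside, PSE_a gave 25.2 ± 1.79, 32.6 ± 2.08 and 11.6 ± 3.00 for ESC, DE and erythrocytes. Erythrocytes thus lay well below ESC and DE inside the left end of the domain, where ESC and DE were closer to each other, and the cell types differed by less just outside it. The level on other chromosomes was at most 0.123 per kb in any library.

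**Figure D2:**
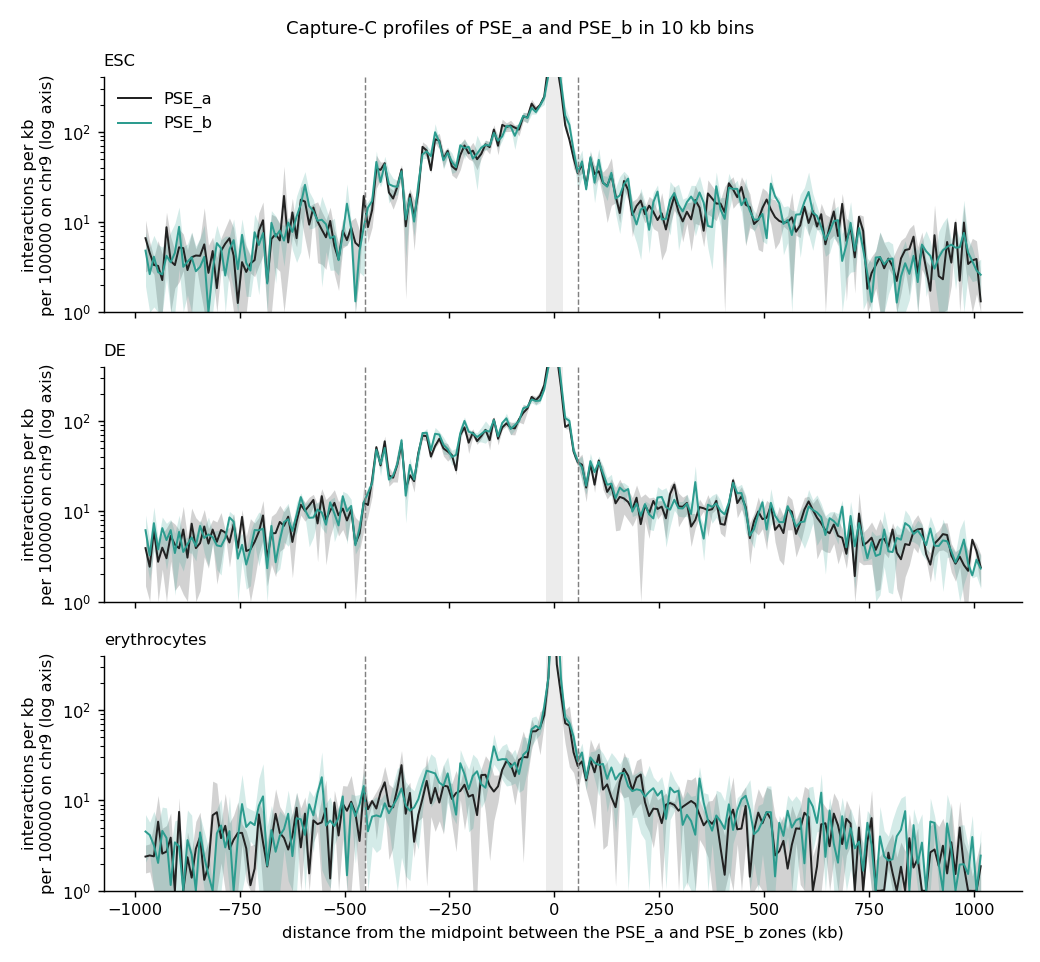
Contact of PSE_a and PSE_b in 10 kb bins (reads per kb per 100000 interactions on chromosome 9, log axis, drawn from 1 to 400) against distance in kb from the midpoint between the zones, in a panel per cell type. Lines are means of 3 libraries, bands are SD, dashed lines are the ends of the domain and the grey area is the 20 kb around the midpoint. The curves of the 2 elements lie on each other over most of the region, and in ESC and DE they fall at both dashed lines.

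From these 2 elements, the step at the left edge was present in ESC and DE and was small or absent in erythrocytes. A step is the level per kb in the 50 kb inside the edge divided by that in the 50 kb outside. From PSE_a it was 3.24, 3.05 and 2.74 in ESC (mean 3.01 ± 0.255, SD, n = 3), 3.19, 3.84 and 7.49 in DE (4.84 ± 2.32) and 1.52, 1.18 and 1.44 in erythrocytes (1.38 ± 0.177). From PSE_b it was 4.94, 3.61 and 2.70 in ESC (3.75 ± 1.13), 3.68, 4.24 and 2.93 in DE (3.62 ± 0.654) and 0.893, 0.747 and 0.747 in erythrocytes (0.796 ± 0.0843). ESC and DE libraries overlapped, the high DE mean from PSE_a rested on replicate 3, and no erythrocyte library reached the lowest of the others. These steps rest on few reads in erythrocytes, 74 inside and 54 outside from PSE_a and 47 and 57 from PSE_b, against 264 and 86 or more in the other groups at PSE_a and 287 and 75 or more at PSE_b. The exact permutation test over the 3 cell types gave p = 0.0071 from PSE_a and 0.0357 from PSE_b (0.0143 and 0.0595 adjusted over 10 tests, so that only the first passed).

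Windows of 25 kb changed the size of the left step in ESC from PSE_a, which was then 1.45 ± 0.220 against 4.52 ± 1.79 from PSE_b. In erythrocytes it was then 1.18 ± 0.387 from PSE_a (0.755 to 1.51), which overlaps the ESC libraries (1.24 to 1.68; exact permutation p = 0.5), so that ESC and erythrocytes were no longer apart from this element. From PSE_b it was 0.539 ± 0.157 in erythrocytes and the groups stayed apart. Without erythrocyte replicate 2, the log2 step of erythrocytes minus that of ESC was -1.02 from PSE_a and -2.15 from PSE_b, against -1.13 and -2.20 with all libraries (each exact permutation p = 0.1).

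The step at the right edge, 50 to 60 kb from the viewpoints, was seen in all 3 cell types. From PSE_a it was 4.01, 3.29 and 3.57 in ESC (3.62 ± 0.360), 4.09, 4.12 and 4.84 in DE (4.35 ± 0.422) and 3.81, 2.76 and 3.84 in erythrocytes (3.47 ± 0.620). From PSE_b it was 4.05, 4.33 and 5.63 in ESC (4.67 ± 0.845), 4.40, 4.32 and 5.08 in DE (4.60 ± 0.417) and 4.10, 4.68 and 7.15 in erythrocytes (5.31 ± 1.62). The cell types overlapped at PSE_b, and at PSE_a all DE libraries lay above all others. The 3 cell types did not pass the exact permutation test at either element (p = 0.157 and 0.768). Part of the inside window lies close to the viewpoints, and with fragments within 20 kb left out the steps were 2.22, 2.76 and 2.20 from PSE_a and 2.47, 2.53 and 2.36 from PSE_b in ESC, DE and erythrocytes.

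**Figure D3:**
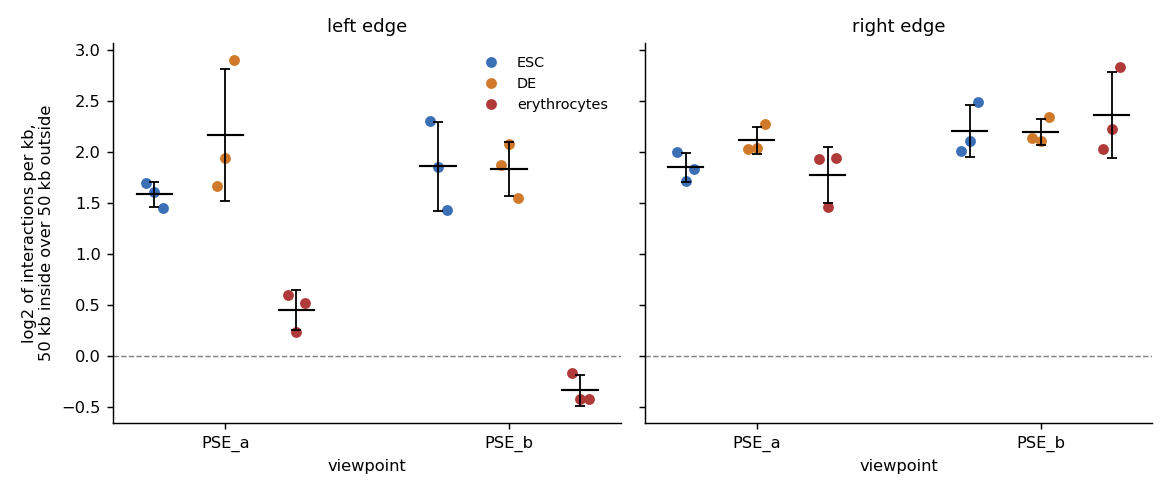
Step at the left and right edge of the domain (log2 of the level per kb in the 50 kb inside over the 50 kb outside) from PSE_a and PSE_b in ESC, DE and erythrocytes. Points are libraries and horizontal marks are means (n = 3). At the left edge the erythrocyte libraries lie below all ESC and DE libraries, and at the right edge the groups lie at similar heights.

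Contact was also compared at equal distances to the left and right of the viewpoints, where the decline with distance acts alike. Up to 400 kb, the left side lies in the domain, while the right side from 60 kb on lies outside it. This measure was chosen after the values had been seen. From PSE_a the level on the left was 3.64, 2.86 and 3.25 times that on the right in ESC (3.25 ± 0.390), 4.29, 4.18 and 4.09 times in DE (4.18 ± 0.0992) and 1.08, 1.22 and 1.29 times in erythrocytes (1.197 ± 0.109). From PSE_b the ratios were 3.33, 3.27 and 3.18 in ESC (3.26 ± 0.0779), 4.48, 4.28 and 4.74 in DE (4.50 ± 0.230) and 1.13, 1.57 and 1.29 in erythrocytes (1.33 ± 0.220). All DE libraries lay above all ESC libraries at both elements, and all erythrocyte libraries lay far below. The 3 cell types differed with exact permutation p = 0.0036 at each element. DE was higher than ESC by 0.37 and 0.46 on the log2 scale, and each of these pairs of 3 libraries had the smallest p possible, 0.1.

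As a fold, the gap between DE and ESC was widest in the farthest band. As a difference of ratios, the gap from PSE_a was larger at 150 to 200 kb, with 5.33 ± 1.07 in DE against 3.38 ± 0.458 in ESC. Between 300 and 400 kb the ratio was 3.71 ± 0.527 in DE against 1.95 ± 0.208 in ESC from PSE_a, and 3.62 ± 0.272 against 1.85 ± 0.117 from PSE_b. At 60 to 100 kb the ratios were 4.02 ± 0.605 against 3.16 ± 0.479 and 4.52 ± 0.585 against 3.84 ± 0.277. On the left of this far band DE had 37.8 ± 1.97 per kb and ESC 27.8 ± 2.53 from PSE_a, and on the right 10.3 ± 1.01 and 14.3 ± 1.21. In erythrocytes the ratio had means between 0.818 and 1.66 in all 5 bands from PSE_a. Between 300 and 400 kb the erythrocyte libraries overlapped those of ESC at both elements. From PSE_a they had 1.35, 1.54 and 2.07, against 2.05, 2.09 and 1.71 in ESC. From PSE_b they had 1.32, 2.38 and 1.003, against 1.91, 1.72 and 1.94 in ESC. ESC and erythrocytes were thus not apart in this band, while all DE libraries lay above both.

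**Figure D4:**
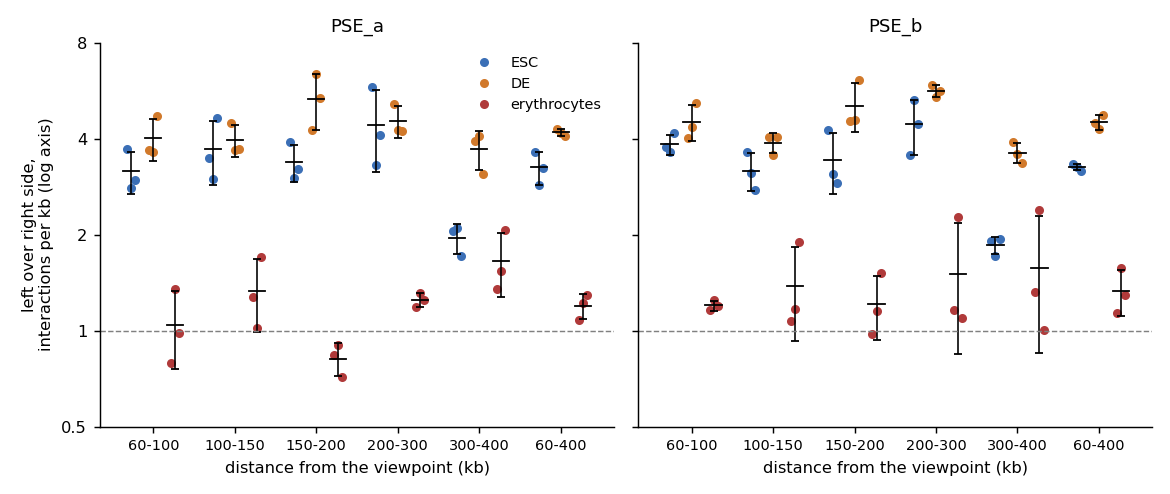
Level on the left over level on the right of the viewpoint at equal distance (ratio, log axis) in bands from 60 to 400 kb, for PSE_a and PSE_b in ESC, DE and erythrocytes. Points are libraries and marks are means (n = 3). From PSE_a the erythrocyte means stay between 0.818 and 1.66 in all bands, while the DE means reach 5.33 and the ESC means 4.41. Between 300 and 400 kb the erythrocyte and ESC libraries overlap at both elements.

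In ESC and DE, PSE_a and PSE_b had closely similar profiles beyond their immediate surroundings. Likeness was lower in erythrocytes, as it was between replicates. Over 196 bins of 10 kb, the profiles from PSE_a and PSE_b of the same library correlated with r between 0.722 and 0.885 in ESC, 0.855 and 0.932 in DE and 0.399 and 0.657 in erythrocytes. Replicates at PSE_a alone had 0.770 to 0.877, 0.856 to 0.911 and 0.478 to 0.598, and replicates at PSE_b 0.809 to 0.863, 0.913 to 0.946 and 0.557 to 0.613. The ranges between elements and between replicates overlapped, and the lowest value between elements was below all replicate values of its cell type. These are descriptions over bins that share a library and the decline with distance. Inside the domain, over 48 bins, the 2 elements of a library had r of 0.924 to 0.959 in ESC and 0.955 to 0.968 in DE, and over the 1059 single fragments 0.356 to 0.605 and 0.580 to 0.740. Fewer reads lie behind each point over single fragments. In erythrocytes r was 0.517 to 0.808 over these bins and 0.148 to 0.377 over single fragments.

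No single distant fragment passed a test between the 2 elements. With limma over 1597 fragments and the library as a block, 3 fragments (0.188%) passed an adjusted p of 0.05, and none of these lay beyond 20 kb, where 52 of 907 fragments in the domain, 2 of 102 to its left and 20 of 494 to its right had an unadjusted p under 0.05. edgeR called 14 fragments, also none beyond 20 kb. DESeq2 called 18, all within 20 kb, but its filter gave no adjusted p for 1486 of the 1597 fragments, so it says little about distant ones. Of the 5 kb bins of the domain beyond 20 kb, 0 of 92 had even an unadjusted p under 0.05 in limma, and their median log2 difference was 0.12. On simulated data of this comparison limma recovered 82% of 4-fold and 98% of 8-fold increases from PSE_b. These were placed in fragments drawn from all those tested. Decreases were not simulated, and distant fragments were not taken alone. The test for a change between ESC and DE that differed between the elements called 0 of 1434 fragments (0%), with 66 at an unadjusted p under 0.05 and 0 calls by edgeR and DESeq2.

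All 3 called fragments lie within 2 kb to the left of the PSE_a zone and were lower from PSE_b. The fragment 118376326 to 118376737, which touches the zone, had 1475, 1200 and 1404 per 100000 from PSE_a in ESC against 735, 518 and 510 from PSE_b. In DE it had 1247, 1125 and 1709 against 422, 490 and 381, and in erythrocytes 4878, 3627 and 20754 against 250, 319 and 466. The PSE_b value was lower in every library, and the highest value by far came from erythrocyte replicate 3. Its log2 difference was -2.40 (SE 0.430, adjusted p = 0.0147), followed by the next fragments to the left, 118375787 to 118376325 with -1.89 (SE 0.354, adjusted p = 0.0147) and 118375197 to 118375786 with -1.61 (SE 0.335, adjusted p = 0.037). None of the 3 passed without DE replicate 3 or without any 1 of the erythrocyte libraries. The 300 bases at the zone end of the first fragment are shown because the difference between the elements was largest there.
fragment beside PSE_a, right end (chr9:118376440-118376739): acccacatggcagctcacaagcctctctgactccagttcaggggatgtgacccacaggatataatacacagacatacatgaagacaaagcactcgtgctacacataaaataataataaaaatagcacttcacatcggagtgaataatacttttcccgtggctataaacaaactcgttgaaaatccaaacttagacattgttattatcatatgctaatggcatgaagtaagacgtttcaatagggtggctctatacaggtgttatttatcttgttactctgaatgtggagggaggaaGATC

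The fragments near the viewpoints followed a simple order around the zones. All 7 fragments within 5 kb to the left of PSE_a had lower values from PSE_b, with a median log2 difference of -1.22, and all 13 within 5 kb to the right of PSE_b had higher values, with a median of 0.87. Farther out to the left, 23 of 33 fragments within 20 kb were lower from PSE_b, and to the right 21 of 23 were higher. The fragment next to the PSE_b zone on the right, 118382071 to 118383192, had the largest positive difference, 1.97 (SE 0.446, adjusted p = 0.0715), and did not pass. Each element was thus seen more often with the fragments nearest to itself, and the window of 5 kb around the Eomes start, which lies to the right of both, had a log2 difference of 0.71 that did not pass (adjusted p = 0.816).

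**Figure D5:**
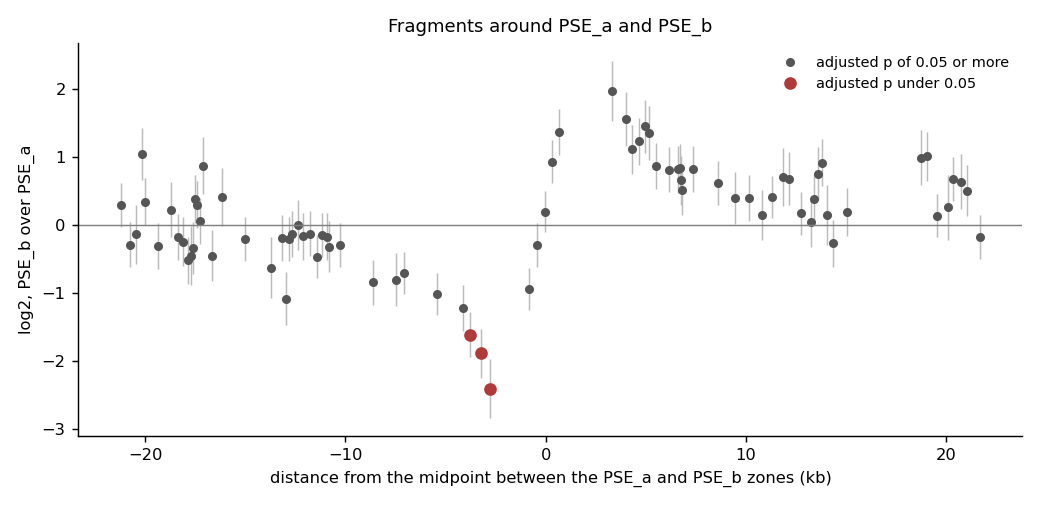
Log2 difference between PSE_b and PSE_a for each fragment within 20 kb, against its distance in kb from the midpoint between the zones. Points are fitted values over 9 libraries, error bars are SE, and red points have an adjusted p under 0.05 in limma. All 7 fragments within 5 kb to the left of PSE_a lie below 0 and all 13 within 5 kb to the right of PSE_b lie above it.

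In whole shares the elements differed by little in the domain and by more in how much contact stayed on the chromosome. The share in the domain was 1.02 points higher from PSE_b, in 8 of 9 libraries (exact permutation within libraries, p = 0.0117, adjusted 0.0146 over 5 measures and 0.195 over the 25 comparisons of viewpoints for this measure, where it did not pass), but with the region as the total the difference was -0.466 points (exact permutation p = 0.45) and with the level of the other chromosomes subtracted -0.22 points (exact permutation p = 0.5). The share of interactions on chromosome 9 was 11.1 points higher from PSE_b, in 9 of 9 libraries (exact permutation p = 0.0039, the smallest that 9 pairs allow). Its means were 65.1% against 54.3% in ESC, 59.9% against 46.3% in DE and 52.5% against 43.6% in erythrocytes. The share within 20 kb differed by -2.499 points and was lower from PSE_b in 8 of 9 libraries (exact permutation p = 0.0078, adjusted 0.013 over the 5 measures and 0.146 over the 25 comparisons). The right step was higher from PSE_b in 9 of 9 libraries, by 0.34 on the log2 scale (exact permutation p = 0.0039), but by 0.03 (p = 0.79) with 20 kb around the viewpoint left out, and the left step differed by -0.28 (exact permutation p = 0.25).

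The same libraries were also captured at VPE, an enhancer just downstream of Eomes, and at the Eomes promoter. In ESC and DE the domain share was higher than at VPE in 6 of 6 libraries, by 4.87 points from PSE_a and 5.71 points from PSE_b (exact permutation p = 0.0312 each, the smallest that 6 pairs allow, 0.0625 adjusted over 20 tests). Against the promoter the differences were 0.138 and 0.985 points and did not pass (exact permutation p = 0.94 and 0.31). The share of interactions on chromosome 9 from PSE_a minus that from VPE was -10.9 points, and minus that from the promoter -10.3 points, lower in 6 of 6 libraries (exact permutation p = 0.0312 each, adjusted 0.0625). VPE and the promoter lie 39.1 kb and 48.6 kb from the right edge, nearer than the PSE elements, and the right step was lower from both PSE elements than from either of them in 6 of 6 libraries (exact permutation p = 0.0312 in each of these 4 comparisons, 0.0625 adjusted). This order did not hold away from the viewpoints. With fragments within 20 kb of each viewpoint left out, the right step in ESC and DE had means of 1.82 and 2.26 from VPE and 2.35 and 2.68 from the promoter, against 2.22 and 2.76 from PSE_a and 2.47 and 2.53 from PSE_b. At the left edge, erythrocytes had a step of 2.43, 2.52 and 2.99 from VPE, against 1.21, 1.43 and 1.59 from the promoter. From VPE this step was 9.82, 6.46 and 7.41 in ESC and 5.40, 5.85 and 6.77 in DE. The erythrocyte step was thus larger from VPE than from the PSE elements, but from VPE too it was lower than in ESC and DE. In ESC and DE the left step from PSE_b was lower than from VPE and from the promoter in 6 of 6 libraries (exact permutation p = 0.0312 each, 0.0625 adjusted). From PSE_a it was higher than from either in 1 of 6 (exact permutation p = 0.0625 each, 0.104 adjusted).

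Between ESC and DE no fragment changed by the main test from either element. limma called 0 of 857 fragments (0%) from PSE_a, with 67 at an unadjusted p under 0.05, and 0 of 979 (0%) from PSE_b, with 60. edgeR called 3 and 0, and DESeq2 0 and 0. The median log2 difference of DE from ESC over the domain fragments beyond 20 kb was 0.09 from PSE_a and 0.22 from PSE_b, against 0.02 and 0.12 over all tested fragments. On simulated data of this comparison at PSE_b, 57% of 4-fold and 99% of 8-fold increases in DE were recovered, and decreases were not simulated.

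Many fragments were lower in erythrocytes, most of them in the domain. Against ESC, limma called 83 of 376 fragments (22.1%) from PSE_a, 82 of them lower, and 39 of 415 (9.4%) from PSE_b, 38 of them lower. Of these, 78 and 36 lay in the domain beyond 20 kb, where 280 and 318 fragments were tested. The median log2 difference was -1.70 over the domain fragments and -1.52 over all tested fragments from PSE_a, and -1.49 and -1.27 from PSE_b. Against DE, 244 of 677 (36%) and 281 of 848 (33.1%) passed, of which 238 and 276 were lower. The tests needed 10 reads or more per fragment over the 2 groups compared, and most fragments with that many lie in the domain. Domain fragments beyond 20 kb held 6313 reads from PSE_a and 6623 from PSE_b in ESC, against 1399 and 1511 in erythrocytes. The filter thus favoured fragments that were high in ESC or DE, so the balance of lower over higher calls is not a test of direction.

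These counts depended on the scaling and on single libraries. With TMM scaling the calls against ESC fell to 4 from PSE_a and 12 from PSE_b, and with DESeq2 size factors to 0 and 0. These methods moved the median of all fragments from -1.52 to -1.05 and -0.92 and from -1.27 to -0.91 and -0.75. The domain median stayed below it, at -1.26 and -1.14 from PSE_a. Leaving out ESC replicate 1, 2 or 3 left 6, 2 and 15 calls from PSE_a and none from PSE_b. Leaving out erythrocyte replicate 2 gave 89 and 66 calls, and erythrocyte replicate 3 gave 53 and 21.

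The named sites were elements named by their distance from the Eomes start and the gene starts in and beside the domain, each as a window of 5 kb. Those at -93, -45, -38 and +9 kb are putative enhancers bound by Smad2/3 in DE, and the one at -73 kb is open chromatin particular to ESC, as the study describes them. They were tested with the 5 kb bins of the chromosome, of which, for erythrocytes, 15.3% passed against ESC from PSE_a and 8.64% from PSE_b, and 6.16% and 2.69% against DE. From PSE_b against DE these are 16 of 594 bins, whose lowest adjusted p in limma was 0.0488, and 0 passed when the bins were tested without the named sites, so every call in that comparison depends on which windows were adjusted together. Between DE and ESC none of these sites passed from either element (0% of 515 and of 628 windows), and none passed between PSE_b and PSE_a (0% of 1340). The site with the lowest adjusted p in the last comparison, 0.0697, was the start of the annotated U4 snRNA gene, a spliceosomal RNA gene whose window overlaps the PSE_a zone, with a log2 difference of -1.53.

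Among the elements upstream of Eomes, contact in ESC and DE was highest at -38 kb and lowest at -93 kb. From PSE_a the -38 kb window had 1177, 955 and 1107 per 100000 in ESC and 1255, 1110 and 1128 in DE, and the -45 kb window 763, 914 and 648 in ESC and 959, 714 and 648 in DE. The -73 kb window had 815, 791 and 540 in ESC, 856, 722 and 893 in DE and 134, 181 and 154 in erythrocytes. From PSE_b it had 900, 907 and 564 in ESC, 794, 828 and 877 in DE and 176, 203 and 200 in erythrocytes. At -73 kb every erythrocyte library lay below every ESC and DE library at both elements. The log2 difference of erythrocytes from ESC was -2.11 from PSE_a (adjusted p = 0.0329) and -1.95 from PSE_b (adjusted p = 0.0435), and from DE -2.33 (0.0347) and -2.06 (0.0488), all in limma. The median 5 kb bin of the domain beyond 20 kb had -1.85 and -1.67 against ESC, and -2.03 and -1.85 against DE. Against ESC, 32 of 90 such bins passed as lower from PSE_a and 17 of 91 from PSE_b. Lower values at a named site in the domain are thus not particular to that site.

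The -93 kb window was lower in erythrocytes than in ESC, with 466, 423 and 378 against 89.5, 181 and 61.8 from PSE_a. From PSE_b it had 418, 402 and 510 against 88.1, 58.1 and 133. The log2 differences were -1.96 (adjusted p = 0.0456) and -2.19 (adjusted p = 0.0424), with no overlap at either element. Against DE it did not pass (adjusted p = 0.0716 and 0.0558). The -45 and -38 kb windows did not pass in limma, although every erythrocyte library lay below every ESC and DE library at both elements. At -38 kb the erythrocyte libraries had 537, 337 and 124 from PSE_a, a wide spread, and 338, 406 and 466 from PSE_b.

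Compared with their own flanks, 10 kb of sequence starting 2.5 kb away on each side, the -93, -45 and -38 kb windows were lower in most libraries and the -73 kb window was higher in most. In ESC and DE the -45 kb window lay below the mean of its flanks in 6 of 6 libraries at both elements (0.631 to 0.900 times from PSE_a and 0.657 to 0.976 times from PSE_b). The -38 kb window was above them in 1 of 6 libraries from PSE_a and 0 of 6 from PSE_b, and the -93 kb window in 1 of 6 from each. The -73 kb window was above them in 4 of 6 and 5 of 6. In DE this was 3 of 3 at both elements, with means of 1.18 and 1.15 times from PSE_a and PSE_b. In ESC it was 1 of 3 and 2 of 3, with means of 0.863 and 0.997 times. The +9 kb window lies mostly in the captured VPE zone and was not read in this way.

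Of the gene starts compared with their flanks, Golga4 and Itga9 lay above them in all ESC and DE libraries. Golga4, which encodes a protein of the Golgi apparatus, starts 20.1 kb inside the right edge. In ESC and DE its window lay above its flanks in 6 of 6 libraries at both elements, 1.24 to 3.02 times from PSE_a and 1.49 to 2.31 times from PSE_b. Itga9, which encodes the integrin alpha 9 chain, starts 80.4 kb outside the right edge, and its window was 1.54 to 3.15 times its flanks from PSE_a and 1.22 to 3.15 times from PSE_b. To the left, Zcwpw2 lay above its flanks in 5 of 6 libraries from PSE_a and 3 of 6 from PSE_b, Azi2 in 2 and 5, and Cmc1 in 4 and 4. These ratios are descriptions without a test, and the Itga9 window held 31 to 52 reads per cell type and element in ESC and DE.

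The other gene starts lie to the left. Azi2, which encodes an adaptor of the kinase TBK1, starts 20.6 kb inside the left edge. From PSE_b its window had 127, 155 and 107 in ESC, 143, 186 and 210 in DE and 44.1, 0 and 0 in erythrocytes, where only 3 reads were seen. It passed against ESC and DE (adjusted p = 0.0435 and 0.0488), but no fold is given on 3 reads. From PSE_a, Azi2 had 116, 68.2 and 135 in ESC and 44.7, 25.9 and 30.9 in erythrocytes, and did not pass. Cmc1, a gene for a protein of mitochondrial cytochrome c oxidase assembly, shares its start and its reads with the noncoding gene Gm17399. From PSE_b that window had 242, 327 and 296 in DE and 44.1, 58.1 and 66.6 in erythrocytes, a log2 difference of -2.17 (adjusted p = 0.0488). It did not pass against ESC from PSE_b (adjusted p = 0.125) or from PSE_a against ESC or DE (0.0676 and 0.0568).

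An annotated 7SK gene copy, of the small RNA that holds back transcription elongation, starts 268 kb inside the left edge. From PSE_a it had 181, 191 and 243 in ESC, 266, 310 and 391 in DE and 44.7, 25.9 and 30.9 in erythrocytes, on 5 reads. It was lower in erythrocytes by limma, with adjusted p = 0.0318 against ESC and 0.0315 against DE. From PSE_b it had 178, 246 and 564 in ESC, 298, 254 and 286 in DE and 132, 145 and 66.6 in erythrocytes, and did not pass (adjusted p = 0.15 and 0.148). Zcwpw2, whose start lies 5.72 kb outside the left edge, had 51.8, 150 and 108 from PSE_a in ESC and 29.8, 130 and 0 in erythrocytes, which overlap, and did not pass in any comparison.

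These site calls were not stable to every choice. Over all comparisons limma made 12 calls at 6 named windows, of which Cmc1 and Gm17399 are the same reads. The number of calls was 6 without any 1 ESC or DE library, 14 without erythrocyte replicate 1 or 2, 10 without erythrocyte replicate 3, and 0 with the replicate number as a block. The calls at the -73 kb window against ESC from PSE_a, for example, had adjusted p of 0.117, 0.127 and 0.096 without ESC replicate 1, 2 or 3. Over the same comparisons edgeR on the reads called 40 and DESeq2 called 28.

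Among the other 5 kb bins beyond 20 kb, no bin passed between DE and ESC, and those that changed most in erythrocytes lay in the domain. The bin 118160000 to 118164999 had 323, 300 and 270 per 100000 from PSE_a in ESC and 310, 396 and 346 in DE, against 59.7, 0 and 0 in erythrocytes on 4 reads. It passed against ESC in limma (adjusted p = 0.0318), but no fold is given on 4 reads. The bin 118095000 to 118099999 had 530, 518 and 648 from PSE_a in ESC, 207, 264 and 212 in DE and 104, 51.8 and 0 in erythrocytes. From PSE_b it had 533, 829 and 430 in ESC, 285, 428 and 343 in DE and 88.1, 87.1 and 99.9 in erythrocytes. ESC lay above DE without overlap at both elements, but this bin did not pass between them, and against ESC its erythrocyte difference from PSE_a was -3.79 (SE 0.887, adjusted p = 0.0359). A single bin was called higher in erythrocytes than in ESC, 117895000 to 117899999 outside the left edge from PSE_b, with 103, 116 and 33.3 against 12.7, 0 and 0, where ESC had 1 read in all.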

How the data were processed

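NG Capture-C libraries of ESC, DE and erythrocytes (3 each) were grouped by cell type as labelled. Per the labels, reads were trimmed with Trim Galore, aligned with Bowtie to mm9 and assigned to DpnII fragments, and what the authors deposited is a signal for every fragment, with 1 column per replicate and viewpoint that sums to 100000 interactions. The study's methods name its Capture-C scripts, FourCSeq and DESeq2. Handling of duplicate reads is not given in the sources used here, and since no molecular tags are described, some reads may be PCR duplicates. Of 108 columns in 6 files, 36 were used (PSE_a, PSE_b, VPE and the Eomes promoter) and 72 were not. In these columns 100% of values were whole multiples of the value of 1 read (within 0.05 of a read), which gave the reads back. Depth was 4574 to 29079 interactions per library at PSE_a and PSE_b.

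Columns were rescaled to 100000 interactions on chromosome 9. Shares and steps were compared with exact two-sided permutation tests, within libraries for viewpoints. Since the values are a scaled signal, the main test across fragments was limma on log2 of the value plus 10, over all fragments of chromosome 9 with at least 10 reads, with Benjamini-Hochberg adjustment at 0.05, the 2 groups compared in the fit and, between viewpoints, the library as a block. Named sites were tested with 5 kb bins. They were Eomes, the protein-coding genes with a start in the domain or nearest outside it, the elements named by distance, and up to 3 bins beyond 20 kb that rose and 3 that fell most among those passing. The starts of Gm17399, 7SK and U4 were added to these. The domain, the lists and the tests were chosen with earlier results of these data known.

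Alternatives were other totals, windows, bins, pseudocounts and minimum reads, TMM and DESeq2 scaling, edgeR and DESeq2 on recovered reads, all 3 cell types in the fit, the replicate number as a block and each library left out. The 20 kb left out of the right step, the settings for other viewpoints, the bins of the domain alone and the ratios at equal distance were chosen after seeing the data. Replicates were compared by chi-square over 10 kb bins, where the lowest ratio to the degrees of freedom was 1.11, and none were counted as 1 library. Simulated data gave 9 false calls for PSE_b against PSE_a (1597 fragments) and 9 for DE against ESC at PSE_b (979). For erythrocytes against ESC at PSE_a (376) they gave 4, and 69% of 4-fold increases were recovered. Only increases were simulated, so these rates say nothing about the recovery of fragments that are lower in erythrocytes. Software was Python 3.11.15 (scipy 1.17.1, pandas 2.3.3, numpy 2.4.6, matplotlib 3.10.9) and R 4.3.3 (DESeq2 1.42.0, edgeR 4.0.16, limma 3.58.1). Contact between PSE_a and PSE_b could not be measured, because captured enhancer zones are without values at these viewpoints. Gene starts came from the annotation of NCBIM37, the build of the files.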

Additional observations from a re-analysis of the deposited data

Results flagged for a closer look

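In 6 comparisons of viewpoints the ESC libraries all moved one way and the libraries of another cell type all moved the opposite way. They were picked by this rule from a scan of 5 measures over pairs of viewpoints and pairs of cell types. By this selection each has an exact permutation p of 0.1, the smallest that 3 libraries against 3 allow. The domain share from PSE_a minus that from the Eomes promoter was 2.02 points in ESC (1.13 to 2.49) and -1.74 points in DE (-2.32 to -1.34), a difference of -3.75 points.

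The share within 20 kb from PSE_a minus that from VPE was -2.89 points in ESC (-3.65 to -1.88), 5.59 in DE (4.06 to 7.13) and 10.9 in erythrocytes (5.65 to 20.2), so that DE differed from ESC by 8.47 points and erythrocytes by 13.8. The upper end in erythrocytes is replicate 3. From PSE_b minus VPE it was -3.59 points in ESC (-5.16 to -1.86), 3.49 in DE (2.56 to 4.60) and 6.23 in erythrocytes (4.92 to 8.35), with differences from ESC of 7.08 and 9.83 points. The share of interactions on chromosome 9 from PSE_b minus that from VPE was -0.848 points in ESC (-1.20 to -0.587) and 3.38 in DE (2.12 to 4.89), a difference of 4.23 points. The opposite signs were the rule by which these comparisons were picked, so they are not a separate result.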

How the results depend on the processing

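Of 384 recomputed shares, steps and distance ratios, 336 kept their direction and side of the threshold, 15 lost it, 1 gained it and 32 reversed. Comparisons of 3 libraries against 3 cannot go below p = 0.1 in the exact permutation test, so their side of the threshold of 0.05 was fixed. For these only the direction could change, and the 336 are no measure of stable calls. Of 145 recomputed counts 76 stayed within 1.5 times, and of 156 single sites 73 kept their call and 83 lost it. The causes were not tested. With the 2000 kb region as the total, DE minus ESC reversed to 3.75 points from PSE_a and 3.91 from PSE_b, and PSE_b minus PSE_a to -0.466. With the level of the other chromosomes subtracted, PSE_b minus PSE_a was -0.22 points and PSE_a minus VPE in erythrocytes 0.33. The median likeness of the elements was 0.58 over single domain fragments against 0.86.

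Log2 steps near 0 reversed readily. With 25 kb windows the right step of erythrocytes minus ESC was 0.183 from PSE_a and -0.193 from PSE_b, erythrocytes minus DE -0.283 and DE minus ESC 0.0899 from PSE_b, and PSE_b minus PSE_a was 0.11 on the left and 0.172 on the right. With 100 kb windows the right step was 1.18 for erythrocytes minus ESC and 0.914 for erythrocytes minus DE from PSE_a, 0.124 for DE minus ESC from PSE_b, and -0.263 for PSE_b minus PSE_a. With 20 kb left out it was 0.0689 for DE minus ESC, -0.0468 for erythrocytes minus ESC and -0.116 for erythrocytes minus DE from PSE_b, and 0.0331 for PSE_b minus PSE_a.

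Calls between PSE_b and PSE_a (3) were 0 with a pseudocount of 2, 14 with 50, 0 with no minimum, 0 in 5 kb bins, 14 with edgeR and 18 with DESeq2. For DE against ESC (0) they were 3, 2 and 22 from PSE_a with a pseudocount of 2, of 50 and no minimum, and 3 with edgeR, and from PSE_b 3 with a pseudocount of 2 and 29 with no minimum. For erythrocytes against ESC from PSE_a (83) they were 23 with a pseudocount of 2, 198 with no minimum, 42 in bins, 4 with TMM, 0 with DESeq2 size factors, 0 with DESeq2 and 139 with all 3 cell types. From PSE_b (39) they were 23, 65 with a pseudocount of 50, 143, 20, 12, 0, 1 and 112. For erythrocytes against DE from PSE_a (244) they were 159, 388, 18, 147, 124 and, with edgeR, 29, and with DESeq2 0. From PSE_b (281) they were 0 in bins without the named sites (16 with them), 45 with edgeR and 0 with DESeq2. The 12 calls at named sites were 2 with windows of 1 kb to each side, 2 and 31 with pseudocounts of 2 and 50, 40 with edgeR and 28 with DESeq2.

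Leaving out 1 library gave 0 to 3 calls between PSE_b and PSE_a (0 without DE replicate 3 or any erythrocyte library), 2 to 89 and 0 to 66 for erythrocytes against ESC, 45 to 255 and 73 to 335 against DE (the fewest without DE replicate 2) and 6 to 14 calls at named sites. The right step of erythrocytes minus ESC then ran from -0.156 to 0.084 from PSE_a and from -0.0775 to 0.324 from PSE_b, erythrocytes minus DE from -0.0658 to 0.335, and DE minus ESC from -0.107 to 0.131 on the right and -0.241 to 0.196 on the left. Differences of domain share from VPE in ESC and DE ran from 4.23 to 5.36 at PSE_a and 5.37 to 6.14 at PSE_b, with p at 0.0625, the least that 5 pairs allow, and in erythrocytes from -0.593 to 0.902 at PSE_b. Differences from the promoter ran from -0.332 to 0.629 at PSE_a in ESC and DE and from -1.38 to 0.259 at PSE_b in erythrocytes. The left over right ratio of PSE_b minus PSE_a ran from 0.0527 to 0.114, and passed without ESC replicate 1.

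Whether replicate numbers pair the libraries could not be decided from their values. Deviations of same-numbered libraries correlated at -0.115 to 0.172, and 1 of 18 was above 0.1. PSE_a and PSE_b of the same library, which are paired, gave -0.166 to 0.0677 with 0 of 9 above 0.1. This check therefore cannot detect pairing. With the replicate number as a block, erythrocytes against ESC gave 107 fragments from PSE_a and 52 from PSE_b, against DE 305 and 284, DE against ESC 0 and 0, and the sites 0. Between viewpoints the fit without the block gave 3 fragments, and the domain share difference of 1.02 points had p = 0.697 in an unpaired permutation test. Depth limits the erythrocytes most, where left steps rest on 74 and 54 reads from PSE_a and 47 and 57 from PSE_b.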

Other observations

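Outside the left edge, ESC had more contact 100 to 250 kb from the edge than in the 100 kb next to it. From PSE_a the farther stretch had 9.39, 10.5 and 10.6 reads per kb per 100000 in the ESC libraries against 8.29, 8.33 and 7.84 in the nearer one, and from PSE_b 11.9, 10.6 and 9.48 against 7.11, 7.78 and 7.53. All 3 ESC libraries showed this order at both elements. In DE the means were 8.36 ± 1.38 against 9.21 ± 1.98 from PSE_a and 7.59 ± 1.18 against 9.59 ± 0.829 from PSE_b, in the opposite order. All DE libraries had this opposite order from PSE_b. From PSE_a, DE replicate 3 had the order of ESC, with 7.06 against 6.93. The difference between the cell types was not tested.

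On the right of the domain, beyond 250 kb from its edge, ESC had 9.43 ± 0.582 per kb from PSE_a and 9.60 ± 0.842 from PSE_b (SD, n = 3 each). DE had 7.02 ± 0.190 and 7.57 ± 0.613 there, and erythrocytes 3.86 ± 1.93 and 4.93 ± 1.23. These values are descriptions without a test.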
